A study of Mus musculus with 6 samples.

Results

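Angiotensinogen, receptors of the renin-angiotensin system and membrane peptidases that cut angiotensins and other small peptides were followed in RNAseq libraries from mouse hippocampi. The genes were taken by symbol from the deposited counts, and 8 of the 54838 genes in the table belong to this group: Agt, Ace, Atp6ap2, Agtr1a, Mme, Enpep, Anpep and Lnpep. Every one of them was found and had enough fragments to be tested, as did 19087 genes of the whole table. The group was chosen on earlier results of these data, selected on the counts of the transgenic against the wild-type mice, so their differences between genotypes are given as a description, and nothing is read from a test of them.

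The libraries came from hippocampi of females aged 7 months, 3 wild-type and 3 FVB/NJ-Tg(ORAI1)Ibd mice, with 1 library of polyA RNA per mouse. The transgenic mice belong to a single FVB/NJ line that carries a human ORAI1 coding sequence in a modified mouse Thy-1.2 cassette, which drives expression in neurons. ORAI1 is a calcium channel of the plasma membrane that opens when the calcium store of the endoplasmic reticulum is emptied, and the study asked how its overexpression changes gene expression. The mice are called wild-type 1 to 3 and transgenic 1 to 3, and the labels do not say that equal numbers mark paired animals.

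In the renin-angiotensin system renin cuts angiotensinogen to angiotensin I, and angiotensin-converting enzyme, the product of Ace, shortens it to angiotensin II, which acts on receptors such as the AT1a receptor encoded by Agtr1a. Peptidases of the cell surface then trim or degrade these peptides: aminopeptidase A (Enpep) and aminopeptidase N (Anpep) remove residues from the amino end, neprilysin (Mme) cuts within the chain, and insulin-regulated aminopeptidase (Lnpep) binds angiotensin IV. In the brain astrocytes are the main source of angiotensinogen, Ace is known to be abundant in the choroid plexus and in striatal projection neurons, and neprilysin also degrades enkephalins and the amyloid beta peptide.

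Between 37414241 and 52497799 fragments were counted per library. The counts on the mouse gene Orai1 matched the labels, with 302 to 376 fragments in the wild-type and 11834 to 14620 in the transgenic libraries. The transgene is a human sequence, and fragments of human and mouse origin were not told apart in these counts. All 9 markers of hippocampal neurons passed the filter, and their summed level ran from 1126 to 1151 CPM (counts relative to the scaled library total) in wild-type and from 1094 to 1202 CPM in transgenic mice. Of these markers Neurod2 rose (log2 fold change 0.32, adjusted p = 0.0239, edgeR) and 8 were not called. The wild-type 2 library stood apart by 7 markers of the striatum, which summed to 153 CPM there and to between 31.1 and 45.4 CPM in the other 5 libraries. The 16 markers of choroid plexus epithelium, the secretory tissue of the ventricles that adjoins the hippocampus, summed to 2535 to 4481 CPM in wild-type and to 271 to 499 CPM in transgenic mice. In bulk tissue fewer cells of a type and less RNA per cell cannot be told apart.

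Among the 8 genes the largest difference between genotypes was that of Ace (ENSMUSG00000020681), at chr11:105967945-105989964 on the plus strand of GRCm38. RefSeq gives it 2 starts that lie 7241 bases apart, and the deposited counts sum the fragments of the whole gene, so the starts were not counted separately. The 250 bases in front of each RefSeq start are shown because Ace is the gene the values below turn on. The upstream window runs just past the start of the gene in the Ensembl annotation, to 105967947, and so touches its first exon. They are from RefSeq on GRCm38.p6, written 5′ to 3′ on the plus strand, and capitals mark matches to TATAAA or GGGCGG on either strand.
Ace upstream start, chr11:105967698-105967947: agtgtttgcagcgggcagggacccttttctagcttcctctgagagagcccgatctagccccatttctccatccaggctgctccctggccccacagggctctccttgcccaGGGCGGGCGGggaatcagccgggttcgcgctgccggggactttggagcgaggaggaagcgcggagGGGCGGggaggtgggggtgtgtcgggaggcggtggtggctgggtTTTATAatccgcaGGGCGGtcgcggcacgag
Ace internal start, chr11:105974939-105975188: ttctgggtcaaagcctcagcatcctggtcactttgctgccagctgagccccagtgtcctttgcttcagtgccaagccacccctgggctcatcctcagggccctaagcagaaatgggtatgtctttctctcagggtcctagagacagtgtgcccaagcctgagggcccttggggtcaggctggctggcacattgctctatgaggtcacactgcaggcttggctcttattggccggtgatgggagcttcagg
The upstream window had a GC content of 67.2%, against a median of 52.4% over 32851 such RefSeq regions of mouse genes. It held the GC box GGGCGG at positions 111, 115, 176 and 233, of which the first 2 overlap, and TTTATA, the reverse complement of the TATA box TATAAA, at position 220, counted from 1 at the 5′ end. The internal window had a GC content of 58.0% and held neither of these nor the cyclic AMP response element TGACGTCA. Over the 32851 regions GGGCGG was found in 32.7%, TATAAA in 12.4% and TGACGTCA in 1.55%, on either strand. A match describes the letters only.

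Levels within the wild-type hippocampus were compared per length, as FPKM (fragments relative to exon length and library total). The 8 genes spanned the range of hippocampal transcripts, from Atp6ap2 near the top to Agtr1a near the detection limit. Atp6ap2, the (pro)renin receptor and an accessory subunit of the vacuolar proton pump, had 84.7 ± 5.63 FPKM (SD, n = 3) and lay at percentile 98.0 of the tested genes. Ace followed with 14.1 ± 1.11 FPKM, Agt with 13.6 ± 0.434 FPKM and Lnpep with 10.6 ± 0.131 FPKM (SD, n = 3 each), at percentiles 81.0, 80.3 and 74.7. The next gene was 8.27-fold below Lnpep, so the genes fell into a set that is readily measured and a set of low transcripts. Anpep had 1.28 ± 0.304, Mme 0.753 ± 0.227 and Enpep 0.715 ± 0.116 FPKM, between percentiles 21.9 and 30.4. Agtr1a was lowest with 0.181 ± 0.0734 FPKM, at percentile 5.86.

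The order was not resolved everywhere. The ranges over the 3 mice overlapped for the neighbours Ace and Agt, Anpep and Mme, and Mme and Enpep. The other neighbours in this order did not overlap: Atp6ap2 was 5.99-fold above Ace, Agt 1.29-fold above Lnpep, and Enpep 3.94-fold above Agtr1a. The converting enzyme and its precursor substrate thus stood at about equal FPKM in wild-type hippocampi, with a ratio of Ace to Agt of 1.13, 1.06 and 0.929 in wild-type 1, 2 and 3.

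**Figure D1:**
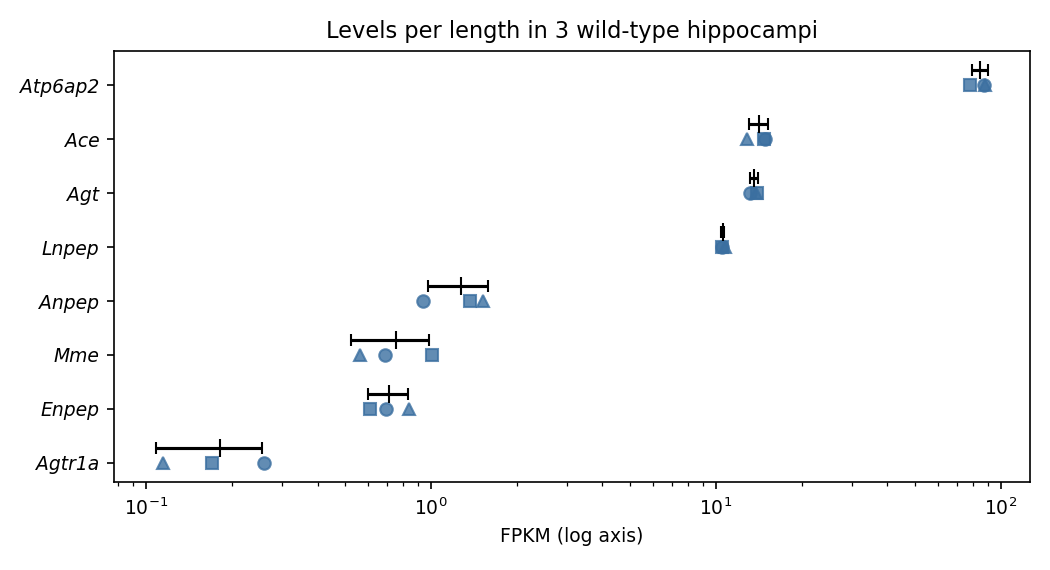
Levels of the 8 genes in FPKM (log axis) in the 3 wild-type hippocampi; circles, squares and triangles are wild-type 1, 2 and 3, and the black bars above them give the mean ± SD. Atp6ap2 lies at 84.7 FPKM, Ace, Agt and Lnpep between 10.6 and 14.1 FPKM, and the other 4 genes at or below 1.28 FPKM on average.

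The question put to the genotypes was which of these genes differ in hippocampi that overexpress ORAI1. Ace was the one of the 8 that differed most, at 30.5% of its wild-type level. Of the 8 genes 1, Ace, was called, that is, had an adjusted p under 0.05 by edgeR's quasi-likelihood test, and it was lower in transgenic mice, while 7.10% of all tested genes passed in either direction, 3.10% as higher and 4.00% as lower. In 2 of the 8, Ace and Lnpep, the mice of the genotypes did not overlap, both lower, against 34.9% of all tested genes in either direction and 17.9% lower. Because the genes were picked with this comparison in view, nothing is read from these counts. The log2 fold change was below 0 for 6 and above 0 for 2 of the genes, with a median of -0.25, beside a median of -0.01 over all tested genes.

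**Figure D2:**
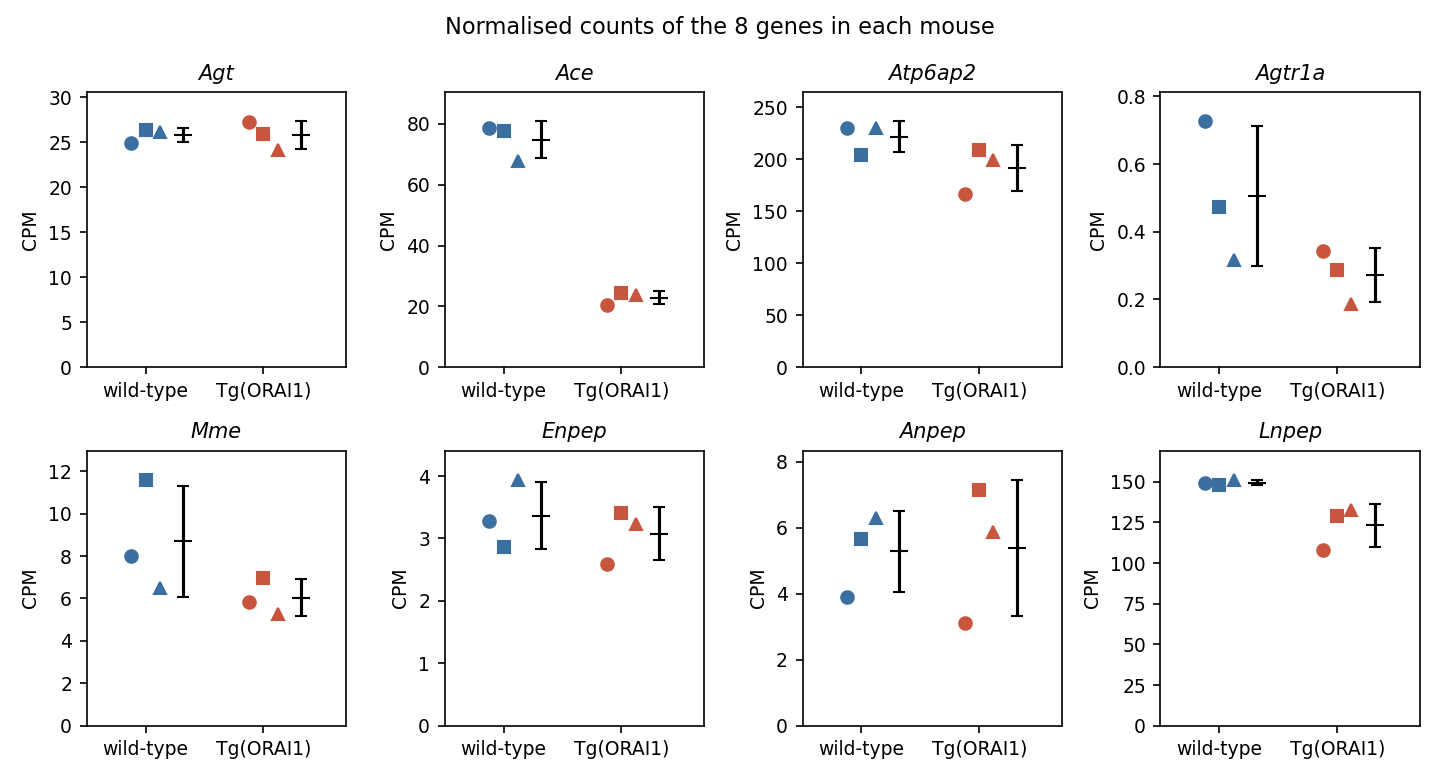
CPM of each gene in each mouse, with an axis from 0 in every panel; blue is wild-type and red Tg(ORAI1)Ibd, circles, squares and triangles are mice 1, 2 and 3, and black bars give the mean ± SD. The points of Ace are separated by a wide gap (67.7 to 78.6 against 20.4 to 24.3 CPM) and those of Lnpep by a narrow one, while those of the other 6 genes overlap.

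Agt (ENSMUSG00000031980, chr8:124556534-124569706, minus strand) encodes the only known precursor of the angiotensins. It stood at 24.9, 26.3 and 26.1 CPM in wild-type 1, 2 and 3 and at 27.2, 25.9 and 24.1 CPM in transgenic 1, 2 and 3. The highest and the lowest mouse were both transgenic. The means were 25.8 ± 0.745 and 25.8 ± 1.53 CPM (SD, n = 3 each), and the log2 fold change was 0.00 (SE 0.062). Astrocyte markers, 8 genes with none called, summed to 5104 to 6866 CPM in wild-type and 5011 to 6193 CPM in transgenic mice.

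Ace encodes a zinc peptidase with 2 catalytic domains in its somatic form, which also inactivates bradykinin. Its level was 78.6, 77.8 and 67.7 CPM in the wild-type and 20.4, 24.3 and 23.7 CPM in the transgenic mice. The lowest wild-type mouse was far above the highest transgenic one, and the mice of 1 genotype lay close together. The means were 74.7 ± 6.07 and 22.8 ± 2.12 CPM (SD, n = 3 each), a log2 fold change of -1.71 (SE 0.088). Per length this was 14.1 ± 1.11 against 4.30 ± 0.422 FPKM, and the ratio of Ace to Agt was 0.268, 0.335 and 0.351 in transgenic 1, 2 and 3. Leaving out any 1 mouse gave between -1.78 and -1.64, and the 8 other settings gave between -1.77 and -1.68.

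Markers of the choroid plexus moved with Ace. Of the 16 markers 15 fell by edgeR's quasi-likelihood test, beside 4.00% of all tested genes called lower. The median log2 fold change over the list was -2.75, and Slc5a5 was the marker that did not pass. The list was chosen with earlier results of these data known, so this count is a description. No marker was at 0 in any group. The study also measured Kl, Folr1, Clic6 and Kcne2 by real-time PCR in other wild-type and transgenic mice. Each was lower in the transgenic mice there, but none had a p under 0.05 by its Tukey test. Ttr, transthyretin, made up most of the sum, and without it the other 15 summed to 645, 592 and 493 CPM in the wild-type and to 116, 92.4 and 98.1 CPM in the transgenic mice. That sum stood at 17.7% of its wild-type level, when Ace stood at 30.5%. In both quantities wild-type 3 was the lowest of the wild-type mice, while transgenic 1 was the lowest of its group for Ace and the highest for the markers. The part of the choroid plexus in the difference of Ace was not tested.

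Agtr1a (ENSMUSG00000049115, chr13:30336441-30382867, plus strand) encodes the G protein-coupled receptor through which angiotensin II raises blood pressure and thirst. It was barely detected: 38, 20 and 12 fragments were counted in the wild-type and 16, 11 and 7 in the transgenic libraries. Counting error alone allows 26.9 to 52.2 fragments for the highest of these counts and 2.81 to 14.4 for the lowest (exact Poisson 95% intervals). In CPM these were 0.726, 0.474 and 0.317 against 0.343, 0.288 and 0.187, and the genotypes overlapped. The means of 0.506 ± 0.206 and 0.273 ± 0.0792 CPM (SD, n = 3 each) gave a log2 fold change of -0.90 (SE 0.38). Without wild-type 1, the mouse with the highest level, it was -0.51. No stretch of 76 bases, the read length, was shared between transcripts of Agtr1a and of another gene, its paralog Agtr1b included.

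Atp6ap2 (ENSMUSG00000031007, chrX:12587801-12617049, plus strand) was the most abundant of the genes per length in every mouse. Its level was 230, 204 and 230 CPM in the wild-type and 166, 209 and 199 CPM in the transgenic mice. Transgenic 1 was the lowest and the other transgenic mice lay near wild-type 2. The means were 221 ± 14.8 and 191 ± 22.2 CPM (SD, n = 3 each), a log2 fold change of -0.21 (SE 0.091). Without transgenic 1 it was -0.12.

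Mme (ENSMUSG00000027820, chr3:63241537-63386030, plus strand) had 8.01, 11.6 and 6.47 CPM in the wild-type and 5.85, 6.97 and 5.26 CPM in the transgenic mice. The values overlapped, and wild-type 2 was the highest of all. The means were 8.69 ± 2.63 and 6.03 ± 0.868 CPM (SD, n = 3 each), a log2 fold change of -0.53 (SE 0.216). Wild-type 2 is also the library with the high striatal markers: Adora2a, the adenosine receptor of striatal projection neurons, had 652 counts there and 56 to 85 in the other 5 libraries. Of the 7 striatal markers 6 were over 1.5 times higher in wild-type 2 than in any other library, and Drd1 had 17.0 CPM both there and in transgenic 3. Without wild-type 2 the log2 fold change of Mme was -0.25, and without wild-type 3 it was -0.69. The part of the striatal markers in the value of Mme was not tested.

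Enpep (ENSMUSG00000028024, chr3:129269175-129332720, minus strand) turns angiotensin II into angiotensin III. It had 3.29, 2.87 and 3.94 CPM in the wild-type and 2.59, 3.41 and 3.23 CPM in the transgenic mice, and the genotypes overlapped. The means were 3.36 ± 0.539 and 3.08 ± 0.428 CPM (SD, n = 3 each), a log2 fold change of -0.13 (SE 0.17). Without wild-type 3 it was 0.00 and without transgenic 1 it was -0.02.

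Anpep (ENSMUSG00000039062, chr7:79821803-79861059, minus strand), which in brain is known from pericytes, turns angiotensin III into angiotensin IV. It had 3.90, 5.66 and 6.29 CPM in the wild-type and 3.11, 7.16 and 5.88 CPM in the transgenic mice. Both the lowest and the highest mouse were transgenic, and the means of 5.28 ± 1.24 and 5.38 ± 2.07 CPM (SD, n = 3 each) gave a log2 fold change of 0.03 (SE 0.307). The 10 markers of mural cells, none of them called, summed to 327, 292 and 391 CPM in the wild-type and to 255, 429 and 366 CPM in the transgenic mice. The 9 markers of meningeal fibroblasts, of which Igfbp2 fell and 8 were not called, summed to 294, 281 and 338 CPM and to 151, 423 and 257 CPM. The 10 markers of endothelium, of which Cldn5 rose and 9 were not called, summed to 234, 243 and 259 CPM and to 223, 307 and 272 CPM. Transgenic 1 was lowest and transgenic 2 highest in Anpep and in all 3 sums, and this was not tested. The FPKM ratio of Anpep to Enpep was lowest in the first mouse of each genotype, at 1.35 and 1.36, and between 1.82 and 2.39 in the other 4 mice.

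**Figure D3:**
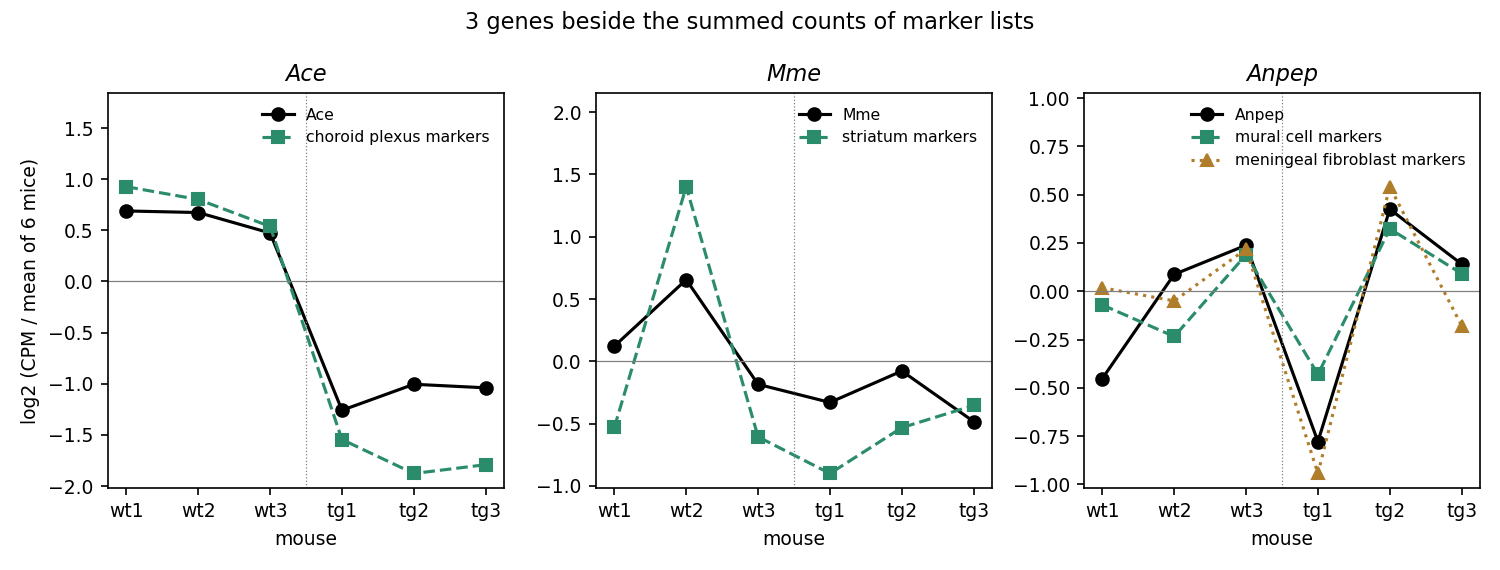
Ace, Mme and Anpep in each mouse (black) beside the summed CPM of marker lists (choroid plexus without Ttr, striatum, mural cells and meningeal fibroblasts), all as log2 of the level over the mean of the 6 mice; wt1 to wt3 are wild-type and tg1 to tg3 transgenic mice. Ace and the choroid plexus markers are above the mean in the 3 wild-type and below it in the 3 transgenic mice, Mme and the striatal markers peak in wt2, and Anpep and its neighbours are lowest in tg1.

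Lnpep (ENSMUSG00000023845, chr17:17521410-17625050, minus strand) encodes the aminopeptidase that travels with the glucose transporter GLUT4 in insulin-responsive vesicles. It had 149, 148 and 151 CPM in the wild-type and 108, 129 and 133 CPM in the transgenic mice. The genotypes did not overlap, the wild-type mice lay within a few CPM of each other, and transgenic 1 was lowest. The means were 149 ± 1.51 and 123 ± 13.3 CPM (SD, n = 3 each), a log2 fold change of -0.28 (SE 0.076). Without transgenic 1 it was -0.19.

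The genes differed in base composition. Lnpep, Mme and Atp6ap2 have AT-rich transcripts, with a GC content of 42.2%, 42.7% and 42.9%, at or below percentile 12.2 of the tested genes, whose median is 50.3%. When the trend of counts on GC content was removed from each library, the log2 fold change of Atp6ap2 was -0.07 in place of -0.21 and that of Lnpep -0.13 in place of -0.28. Mme moved from -0.53 to -0.38 on the same scale. Ace and Agt, with a GC content of 55.0% and 56.3%, moved the other way, Ace from -1.71 to -1.77 and Agt from 0.00 to -0.07. A correction for gene length, which is 14144 bp for Lnpep, gave Lnpep -0.14.

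**Figure D4:**
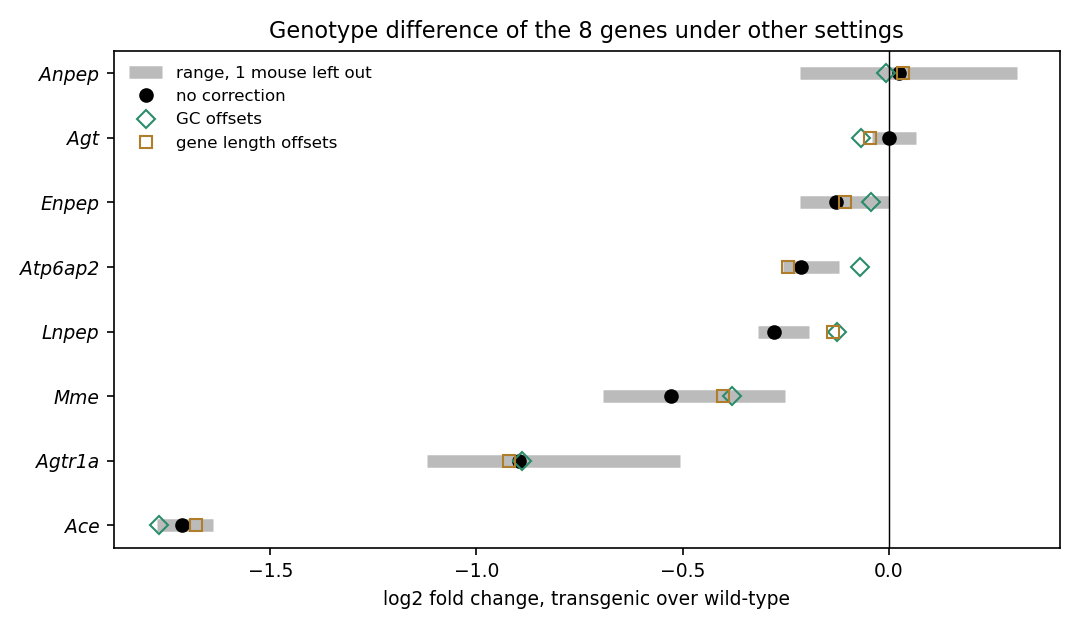
Log2 fold change (transgenic over wild-type) of each gene with all mice and no correction (black), with GC offsets (diamonds) and with gene length offsets (squares); grey bars span the 6 values with 1 mouse left out. Ace lies between -1.78 and -1.64 throughout, Atp6ap2 and Lnpep move towards 0 with GC offsets, and the bars of Agt, Enpep and Anpep reach or cross 0.

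Other genes of the renin-angiotensin system were looked up next. Of 27 further genes of the system 17 passed the filter, and edgeR's quasi-likelihood test called 1 higher and 1 lower, beside 3.10% higher and 4.00% lower over all tested genes. The median log2 fold change of the 17 was -0.05. Thop1, an intracellular peptidase that makes angiotensin (1-7) from angiotensin I, rose from 38.4 ± 1.42 to 47.1 ± 1.68 CPM (log2 fold change 0.29, SE 0.052, adjusted p = 0.0271, edgeR). Cltrn, the collectrin gene, whose product is a membrane protein best known from the kidney, fell from 0.615 ± 0.0838 to 0.103 ± 0.0489 CPM (log2 fold change -2.50, SE 0.349, adjusted p = 0.0155, edgeR). It was counted with 29, 30 and 22 fragments in the wild-type and 7, 2 and 4 in the transgenic libraries, so its level is imprecise. With 1 mouse left out the adjusted p of Cltrn reached 0.0828 and that of Thop1 0.126. Both calls were lost without wild-type 1, without wild-type 2 and without transgenic 3, and Thop1 also without transgenic 2. Thop1 also missed the threshold with GC offsets (log2 fold change 0.20, adjusted p = 0.0961, edgeR).

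The enzyme and the receptors on either side of Ace were measured at low levels or missed the threshold. Ren1, renin, had 16 to 20 fragments per wild-type and 13 to 23 per transgenic library (log2 fold change 0.16, adjusted p = 0.722, edgeR). Mas1, the receptor of angiotensin (1-7), had 33.6 ± 1.87 and 39.8 ± 1.76 CPM (log2 fold change 0.25, adjusted p = 0.0528, edgeR), with all 3 transgenic mice above all 3 wild-type mice. It passed with DESeq2's Wald test (adjusted p = 0.0187). Agtr2, the AT2 receptor, had 0.875 ± 0.168 and 0.878 ± 0.338 CPM, and Agtrap, which binds the AT1 receptor, had 13.8 ± 0.791 and 11.5 ± 2.02 CPM (adjusted p = 0.976 and 0.229, edgeR). Bdkrb2, the receptor of the Ace substrate bradykinin, had 3.02 ± 0.19 and 2.12 ± 0.246 CPM (log2 fold change -0.51, adjusted p = 0.0692, edgeR), and its genotypes did not overlap.

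The other tested genes of the system gave values on both sides of 0. Among peptidases, Dpp3 (log2 fold change 0.08), Rnpep (0.09), Prcp (-0.02), Prep (-0.05), Nln (-0.14) and Ctsd (-0.13) had adjusted p between 0.344 and 0.930 by edgeR. Nr3c2, the mineralocorticoid receptor, had a log2 fold change of -0.23 (adjusted p = 0.0940, edgeR), and Hsd11b1, which regenerates glucocorticoids, one of -0.12 (adjusted p = 0.679, edgeR). Serpina1a belongs to a family of near-identical genes whose fragments may be split between copies, so its log2 fold change of -1.10 (adjusted p = 0.142, edgeR) is uncertain. Agtr1b, Mrgprd, Cma1, Ctsg, Kng1, Kng2, Klkb1, Bdkrb1, Cyp11b2 and Hsd11b2 did not pass the filter and were not tested.

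**Figure D5:**
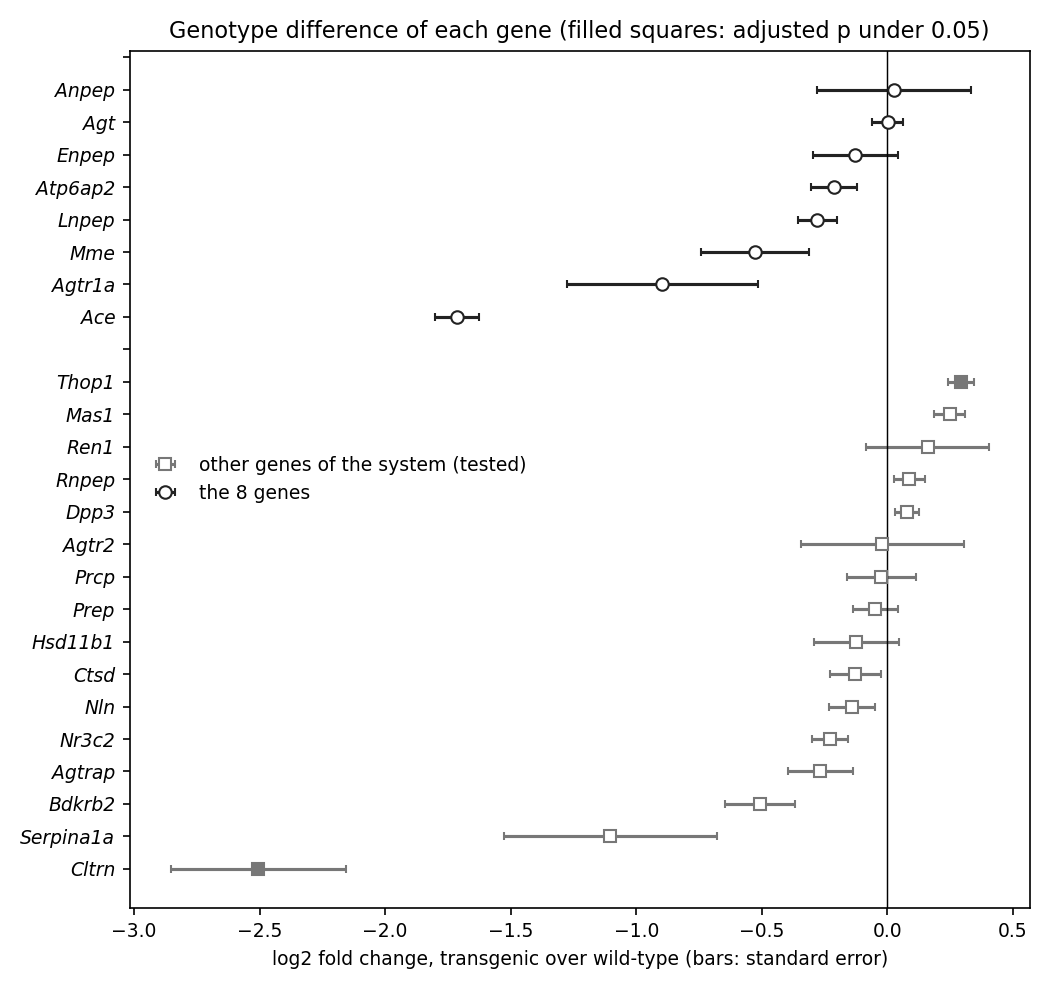
Log2 fold change (transgenic over wild-type) with its standard error for the 8 genes (black circles) and 16 of the 17 tested other genes of the renin-angiotensin system (grey squares); filled squares have an adjusted p under 0.05 by edgeR's quasi-likelihood test over all genes, and circles carry no mark of a test. Ace lies lowest of the 8 genes at -1.71, and the filled squares are Cltrn at -2.50 and Thop1 at 0.29.

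Relatives of the peptidases and partners of Atp6ap2 were looked up in the same way. Of 21 metallopeptidase relatives of Ace, Mme and the aminopeptidases 18 were tested, 2 rose, none was called lower, and the median log2 fold change was 0.01. The gene that rose beside Thop1 was Rnpepl1, an aminopeptidase B-like gene, from 35.6 ± 0.974 to 45.0 ± 1.45 CPM (log2 fold change 0.34, SE 0.049, adjusted p = 0.0176, edgeR). Of 25 proton pump subunit genes 22 were tested, 2 rose and none was called lower, with a median of 0.07. Over all tested genes 3.10% were called higher and 4.00% lower. The pump subunits that rose were Atp6v1f (67.2 ± 2.32 to 79.4 ± 1.48 CPM, log2 fold change 0.24, adjusted p = 0.0291, edgeR) and Atp6v0e2 (286 ± 8.18 to 333 ± 5.36 CPM, log2 fold change 0.22, adjusted p = 0.0337, edgeR). With GC offsets none of Rnpepl1, Atp6v1f and Atp6v0e2 passed (adjusted p = 0.0601, 0.0778 and 0.0601, edgeR), and without wild-type 1, wild-type 2 or transgenic 3 none of them passed either. Both pump subunits also missed the threshold without transgenic 2 and with gene length offsets. Atp6ap1, the other accessory subunit of the pump, had 267 ± 5.09 and 271 ± 3.79 CPM (log2 fold change 0.02, adjusted p = 0.757, edgeR).

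For each of the 8 genes the 2 genes with the nearest profile were found among 15710 genes with a mean of at least 1 CPM, by the Euclidean distance of centred log2 CPM over the 6 libraries. Small distances describe these libraries only, since every gene shares their depth and composition. Nearest to Agt were Lxn and St3gal4, at 0.033 and 0.042, and nearest to Lnpep were Zfx and Dnajb14, at 0.049 and 0.062. Atp6ap2 was nearest to Rbm11 (0.050) and Abhd17b (0.059), and Enpep to Gm10767 (0.072) and Zdhhc2 (0.074). The genes with larger differences between mice had no neighbour as near. Anpep was nearest to Lrrk1 (0.170) and Ifitm3 (0.185), and Ace to Gm26684 (0.272) and Rbm47 (0.273). Mme was nearest to Gm15675 (0.291) and Dnaic2 (0.292), and Agtr1a to Rad21l (0.406) and Hs6st2 (0.426).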

How the data were processed

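RNA from 3 wild-type and 3 FVB/NJ-Tg(ORAI1)Ibd hippocampi was sequenced. The authors trimmed reads with Trimmomatic, aligned them to mm10 with STAR and counted fragments with featureCounts 1.5.0-p1 on the Ensembl 95 annotation (strand setting 2, mapping quality of at least 3, primary alignments). They deposited raw counts of fragments per gene for 6 libraries, not normalized, with gene lengths. Libraries were assigned to genotypes by the column names.

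From these counts genes were kept by edgeR's filterByExpr (minimum count 10) and scaled by TMM. Genotypes were compared across all 19087 genes in edgeR with a quasi-likelihood test, and p-values were adjusted after Benjamini and Hochberg (threshold 0.05). CPM use the scaled totals, and FPKM were computed from counts, deposited lengths and library totals. Profiles used log2 CPM with a prior count of 2. GC content and symbols came from GENCODE M21 on GRCm38, matched for 54723 of 54838 genes, and upstream sequences from RefSeq. No exonic base of the 8 genes was shared with another gene on their strand, and 0.551% of the 76-base windows of Atp6ap2 occurred in Gm36448.

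The alternatives were DESeq2's size factors, total counts, no filter, DESeq2's Wald test, each mouse left out, a replicate block, offsets for GC content (loess, span 0.5) alone and with the block, and offsets for gene length. The fits were tested on simulated data. The genes, lists and markers were chosen with earlier results of these data known. Named genes are the 8 genes, the tested other genes of the system, the called genes of the lists of relatives and pump subunits, markers, Orai1, and the 2 nearest profiles of each gene. Of the genes covered by this rule 1 is not reported here. R 4.3.3, edgeR 4.0.16, DESeq2 1.42.0, Python 3.11.15, pandas 2.3.3 and matplotlib 3.10.9 were used.

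The 3 mice of a genotype are separate animals, and nothing in the labels ties same-numbered mice together. Intervals of counts cover counting error only, and a floor of 3 counts corresponds to 0.0802 CPM in the smallest library. An exact two-sided permutation test of 3 against 3 mice cannot go below p = 0.1, so single values were not tested in that way.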

Additional observations from a re-analysis of the deposited data

How the results depend on the processing

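The counts of the 8 genes called are a description, since the genes were chosen on this comparison. With all mice 1 gene, Ace, was called lower. Without a filter on low counts and with DESeq2's Wald test 2 were called lower, Ace and Lnpep. With 1 mouse left out 1 to 2 were called lower, Lnpep only without transgenic 1. The sign of the log2 fold change of Agt (-0.07 to 0.07), Anpep (-0.22 to 0.31) and Enpep (-0.22 to 0.00) depended on the setting. Of the 8 places in the wild-type order 6 to 8 were kept with 1 mouse left out. Over all genes 591 were called higher and 764 lower, and with 1 mouse left out 11 to 466 and 66 to 683. The counts higher and lower were 263 and 475 with the replicate block, 190 and 264 with GC offsets, 186 and 346 with GC offsets and the block, and 1055 and 1175 with DESeq2's Wald test, and 376 were lower with gene length offsets. Same-numbered mice did not deviate together in every pair (r = 0.399, -0.357 and 0.388 over 11191 genes), so the numbers were not taken to pair them. Among the other renin-angiotensin genes, GC offsets alone or with the block left 0 higher, and DESeq2 gave 2 higher (Mas1 and Thop1) and 0 lower, Cltrn having no adjusted p there; with 1 mouse left out 0 to 1 were higher and 0 to 1 lower. Among the peptidase relatives 0 were higher with GC offsets alone or with the block, 1 was lower with DESeq2 (Trhde), and 0 to 2 were higher with 1 mouse left out. Of the pump subunits 0 were higher with the replicate block, GC offsets, both, or length offsets, 4 with DESeq2, and 0 to 2 with 1 mouse left out. Signs turned for Agtr2 (0.15 with GC offsets, 0.12 with the block added, -0.22 to 0.28 with 1 mouse left out), Prcp (0.054, 0.053 and, with length offsets, 0.012, and -0.10 to 0.089), Prep (0.047, 0.042 and 0.073, and -0.13 to 0.042) and Hsd11b1 (-0.34 to 0.0032 with 1 mouse left out), none of them called. The cause of these changes was not tested. Depth limits Agtr1a, Cltrn and Ren1, each counted with under 40 fragments per library.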
